A study of Mus musculus with 12 samples.

Results

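The subject is the nuclear-encoded subunits of the mitochondrial respiratory chain and ATP synthase, followed in 12 RNA-seq samples of mouse medulloblastoma and cerebellum. Members were the rows whose gene symbol begins with Ndufa, Ndufb, Ndufc, Ndufs, Ndufv, Uqcr, Cox4 to Cox8 or Atp5, without the assembly factors that begin with Ndufaf, together with Sdha, Sdhb, Sdhc and Sdhd. The rule took 85 of 24091 genes. It gave 36 subunits of complex I, 4 of complex II, 8 of complex III, 20 of complex IV and 15 of complex V. The remaining 2 rows, Atp5s and Atp5sl, share the symbol prefix but are not subunits and are described apart. Ndufa4 and its paralog Ndufa4l2 were placed with complex IV, where the Ndufa4 protein is now counted.

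The respiratory chain sits in the inner mitochondrial membrane. Complex I takes electrons from NADH and complex II takes them from succinate. Complex III passes them through cytochrome c to complex IV, which reduces oxygen. Complexes I, III and IV pump protons, and complex V, the ATP synthase, uses the gradient to make ATP. Mature cerebellar neurons draw heavily on this pathway. Complex II is encoded wholly by nuclear genes, while the other complexes also hold subunits made from mitochondrial DNA, which are not analysed here.

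There were 4 groups of 3 samples. The tumors were medulloblastomas of mice GB344, GB359 and GB370, labelled Brca2-mut;Trp53-mut, and the adjacent cerebellum came from the same 3 mice. One control group was cerebellum of Brca2-mut;Trp53-WT mice (GB361, GB508 and GB512), called Brca2-mutant controls below, and the other was cerebellum of Brca2-WT;Trp53-mut mice (GB517, GB519 and GB520), called Trp53-mutant controls. Per the study's methods, the Brca2 mutation is a deletion of exons 3 and 4 by Cre recombinase under the human GFAP promoter in the developing central nervous system, and the Trp53 mutation is a knockout in the whole animal. Every sample thus carries at least 1 of the 2 mutations, no group is wild type at both genes, and each control group differs from the tumor mice at 1 gene. The study describes the controls as age-matched, and the age of each mouse is not given in the labels.

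Values are TPM, an abundance of transcripts corrected for their length and scaled to one fixed total per library, so levels of different genes can be set side by side. Each sample summed to between 999793 and 999876 TPM, and the read depth is unknown. The 3 animals of a group are separate mice. The tissue markers moved with the groups. All 8 oligodendrocyte, all 6 Purkinje cell and 8 of 9 granule neuron markers were called lower in tumors than in controls, and all 7 markers of granule cell progenitors and proliferation were called higher. The summed progenitor markers were at 878 to 1260 TPM in tumors and 29.4 to 54.9 TPM in controls, and in the adjacent cerebellum they were at 416 (GB344), 333 (GB359) and 59.1 TPM (GB370). Summed choroid plexus markers were at 3990 to 5216 TPM in the Trp53-mutant controls and at 893 TPM in Brca2-mutant control GB361, against 31.6 to 97.8 TPM in the other 8 samples. In bulk tissue, fewer cells of a type and less RNA per cell cannot be told apart. The part of these cell mixtures in the results below was not tested.

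Most respiratory chain subunits were lower in the tumors than in the control cerebella. The 83 subunits summed to 24387, 22832 and 25807 TPM in the 3 tumors, to 29304, 32753 and 34800 TPM in the adjacent cerebellum of GB344, GB359 and GB370, and in the 6 controls to between 34809 and 41139 TPM. All 3 tumors lay below every other sample, and the adjacent samples lay between tumors and controls, with GB370 close to the lowest control. On average the tumors held 64.2% of the control level and the adjacent cerebellum 85.1%. By complex, the tumor level was 64.1% of the controls for complex I, 59.7% for complex II, 60.7% for complex III, 56.9% for complex IV and 73.6% for complex V.

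**Figure D1:**
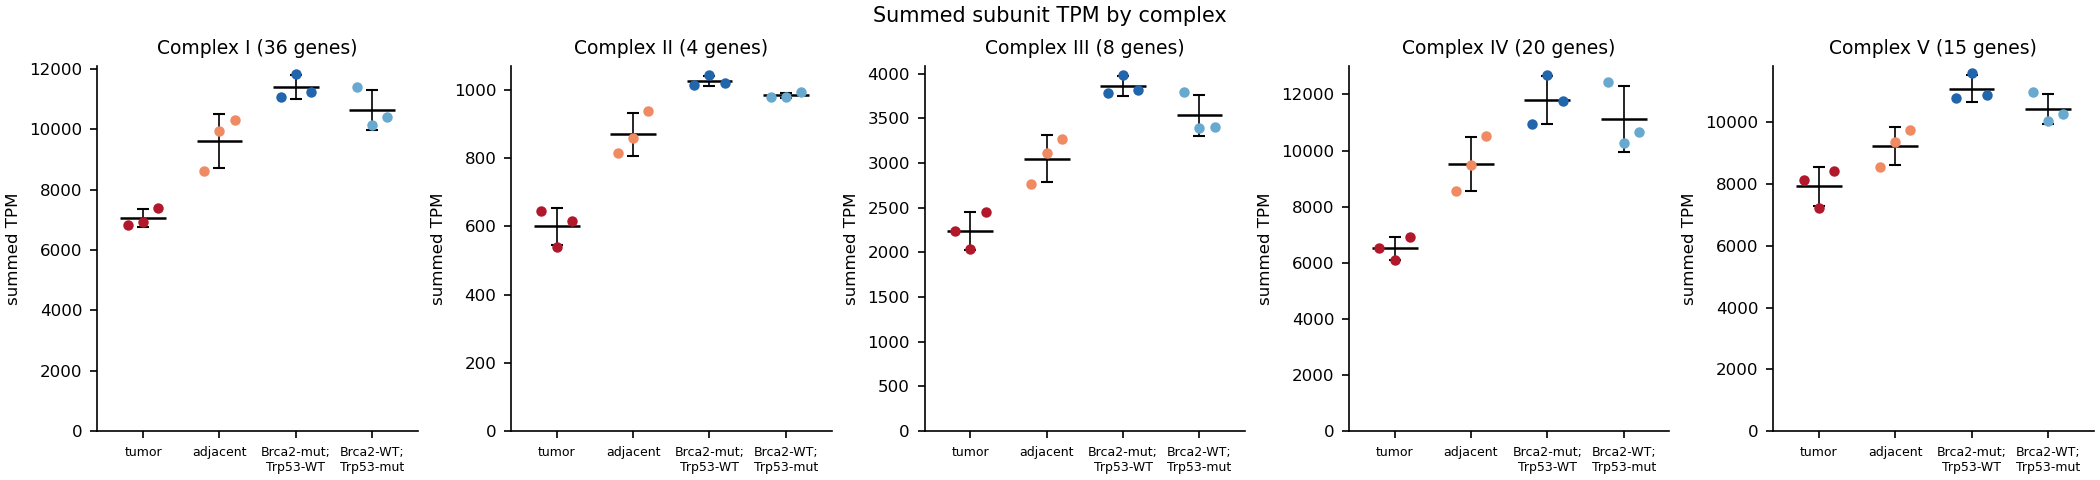
Summed TPM of the subunits of each complex in every sample (points), with the group mean and SD (n = 3 per group, y axis from 0 TPM). In each complex the 3 tumors lie lowest, and the ATP synthase has the smallest distance, at 73.6% of the control mean.

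Each gene was tested with limma on log2(TPM + 1), with adjustment over all genes tested. A call needed an adjusted p under 0.01 and a 2-fold change, and the count at an adjusted p under 0.05 without a fold minimum is given beside it. Of the 85 members, 84 passed the low-value filter, and Cox8c was at 0 TPM in every sample. These 84 include the 2 apart rows, Atp5s and Atp5sl, which were both called lower in tumors than in controls. Against both control groups together, 16 of 84 members were called lower in tumors and 0 higher, where 21.5% of all 16241 genes tested were called lower and 14.4% higher. The share of members past the 2-fold line was thus close to the background. At the second threshold 72 of 84 members were lower (85.7%, against 39.5% of all genes), and 2 were higher (against 31.8%). At an unadjusted p under 0.05, limma gave 74 lower and 2 higher, against 6597 and 5338 of the 16241 genes tested. The tumors lay below all 6 controls for 68 members, which held for 35.7% of all genes.

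The median log2 fold change of the members was -0.64, against -0.11 over all genes tested. By complex it was -0.67 for complex I, -0.32 for complex II, -0.70 for complex III, -0.76 for complex IV and -0.49 for complex V. Under 2 other scalings of the data the median over all genes moved to -0.01 (median-of-ratios) and 0.04 (quantile normalization), and the members lay 0.52 and 0.63 below it, against 0.53 below it as deposited. All 5 complexes kept a negative median under both.

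**Figure D2:**
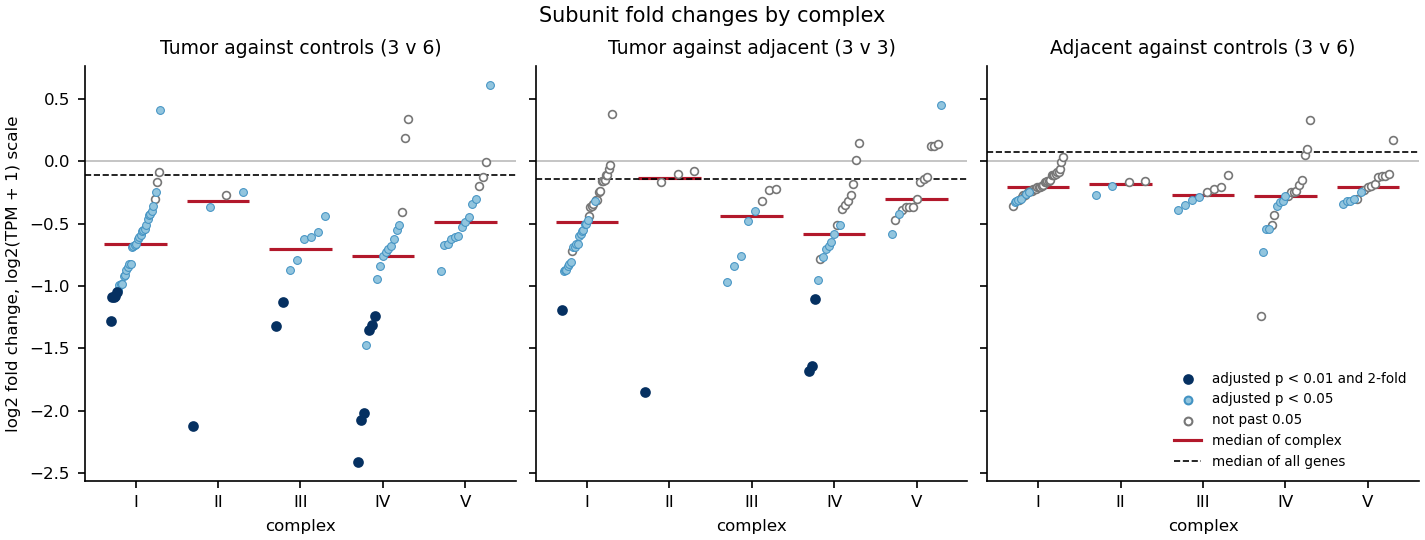
Log2 fold change of each subunit (points, y axis, log2(TPM + 1) scale), by complex, in 3 comparisons, with the median of each complex (red line) and of all genes tested (dashed line). Dark points passed an adjusted p under 0.01 and 2-fold, light blue points an adjusted p under 0.05, and open points neither. In tumor against controls the median ranges from -0.76 for complex IV to -0.32 for complex II.

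Complex I has a hydrophilic arm that oxidizes NADH and a membrane arm that pumps protons. Of its 36 subunits, 32 were lower at an adjusted p under 0.05, 1 was higher, and 5 were called at 2-fold. All 7 nuclear-encoded core subunits, which carry the catalytic centres, were lower at that threshold, with a median of -0.67, and 25 of 29 accessory subunits were, with a median of -0.66. Ndufv3, an accessory subunit at the NADH-oxidizing tip, fell the most. It was at 127, 150 and 143 TPM in tumors and at 316 to 361 TPM (median 353) in controls, with no overlap (log2 fold change -1.28 ± 0.08 SE, limma adjusted p = 1.94e-07). Its adjacent values were 286, 302 and 375 TPM, of which the first 2 lay below the control range and the third above it.

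Ndufs1, the largest core subunit with iron-sulfur clusters, was at 73.7, 80.9 and 78.4 TPM in tumors and at 156 to 169 TPM (median 160) in controls (-1.05 ± 0.06, adjusted p = 1.76e-07). The accessory subunits Ndufa6 (-1.09), Ndufb8 (-1.09) and Ndufb10 (-1.08) completed the 5 calls, and in each the tumors lay below all controls. These 3 and Ndufs1 sit at the 2-fold line: all 4 lost the call under both other scalings, and Ndufb8 also without tumor GB344, while their fold change stayed negative. The most abundant subunits followed the same direction. Ndufa3, the highest in mean TPM, was at 400, 400 and 455 TPM in tumors against 689 to 837 TPM (median 721) in controls, and Ndufb4 was at 312, 345 and 417 TPM against 460 to 579 TPM (median 501).

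At the other end, Ndufa2, an accessory subunit of the hydrophilic arm, was higher in tumors. It was at 301, 201 and 239 TPM in tumors and 158 to 199 TPM (median 186) in controls, a narrow gap at tumor GB359 (0.41 ± 0.12, adjusted p = 0.0127). It no longer passed without tumor GB344 or with Brca2-mutant controls alone. Ndufa7 (-0.09, adjusted p = 0.278) and Ndufb7 (-0.17, adjusted p = 0.141) did not pass the threshold, their tumor and control values overlapped, and Ndufa7 turned positive under another scaling. Across complex I the range thus ran from -1.28 to 0.41, between subunits of the same assembled enzyme.

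Complex II, succinate dehydrogenase, was uneven, with 1 subunit far from the other 3. Sdha, the flavoprotein that oxidizes succinate, was at 82.5, 84.3 and 88.7 TPM in the 3 tumors, at 281, 300 and 354 TPM in the adjacent cerebellum, and at 361 to 389 TPM (median 374) in controls. The tumor values do not approach those of any other sample, and the mean was 4.38-fold lower than in controls (log2 fold change -2.12 ± 0.06, limma adjusted p = 5.75e-09). Sdhb, the iron-sulfur subunit, was at 249, 162 and 192 TPM in tumors against 220 to 255 TPM (median 237) in controls, and the groups overlapped (-0.27 ± 0.12, adjusted p = 0.0673).

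The membrane anchors had smaller differences than Sdha. Sdhc was at 184, 179 and 202 TPM in tumors and 231 to 257 TPM (median 243) in controls (-0.37 ± 0.07, adjusted p = 0.000668). Sdhd was at 129, 116 and 132 TPM against 143 to 160 TPM (median 148), at -0.25 ± 0.07 (adjusted p = 0.00687), and no longer passed under both other scalings or with Trp53-mutant controls alone. Both anchors lay below every control.

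The ratio of Sdha to the mean of Sdhb, Sdhc and Sdhd was 0.441, 0.555 and 0.506 in tumors and 1.64 to 1.86 in controls, with means of 0.501 ± 0.0572 (SD, n = 3) and 1.78 ± 0.0778 (SD, n = 6). A two-sided exact permutation test over samples gave p = 0.0119, the smallest that 3 against 6 samples allow, and 0.0159 after adjustment over 12 ratios and paralog shares. Some of the 12 are parts of the same sum, and the members were chosen with earlier results of these data known. The adjacent samples were at 1.58, 1.62 and 1.82, each above the tumor of the same mouse in all 3 mice. An exact permutation test that ignored the pairing by mouse gave p = 0.1, the smallest that 3 against 3 samples allow. A within-sample ratio is not moved by the scaling of the library.

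**Figure D3:**
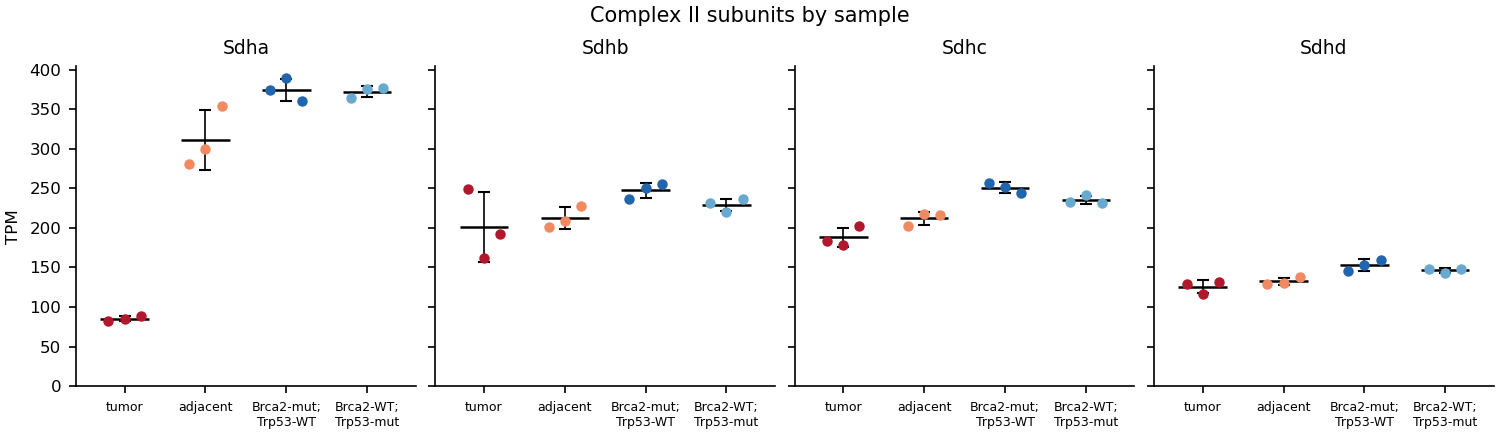
TPM of the 4 complex II subunits in every sample (points, shared y axis from 0), with group means and SD (n = 3). Sdha drops to 82.5 to 88.7 TPM in tumors, below its partners, and is the highest of the 4 in the other groups.

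Sdha lies on chromosome 13 at 74322255 to 74350240 (GRCm38.p6, RefSeq, gene ID 66945), Sdhb on chromosome 4 at 140961271 to 140979198, Sdhc on chromosome 1 at 171129157 to 171150640, and Sdhd on chromosome 9 at 50596340 to 50603849. Chromosomes 13 and 19 had the lowest medians in tumor against controls, -0.38 over 619 genes tested and -0.37 over 541, and the 49 tested genes within 5 Mb of Sdha had a median of -0.64. The members on chromosome 13 were Sdha, Uqcrb, Cox7c, Ndufs6, Ndufs4 and Uqcrfs1, with a median of -1.15. The part of position in the values of these 6 genes was not tested.

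Complex III moved together. All 8 subunits were lower at an adjusted p under 0.05, all with tumors below every control, and 2 were called at 2-fold. Uqcrb, a small subunit near the ubiquinone site, was at 152, 158 and 224 TPM in tumors, 290, 337 and 416 TPM in adjacent cerebellum and 414 to 479 TPM (median 431) in controls (-1.32 ± 0.12, adjusted p = 3.28e-06). Uqcrc2, a core protein, was at 112, 110 and 98.3 TPM against 223 to 247 TPM (median 235), at -1.13 ± 0.07 (adjusted p = 1.71e-07), and this call was lost under quantile normalization. Its partner core protein Uqcrc1 was at -0.87 and the Rieske iron-sulfur protein Uqcrfs1, which hands electrons to cytochrome c1, at -0.61.

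The smallest differences of complex III were those of Uqcr11 (-0.44) and the hinge protein Uqcrh (-0.57), which is also the most abundant with Uqcrq (-0.62). Uqcrh was at 424, 445 and 521 TPM in tumors and at 621 to 762 TPM (median 695) in controls. Cytochrome c1 (Cyc1), a catalytic subunit that the symbol rule does not take, was at 249, 208 and 257 TPM in tumors against 331 to 380 TPM in controls (-0.58 ± 0.08, adjusted p = 9.59e-05). It fell within the range of the complex.

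Complex IV held the widest range, since it has paired forms of several subunits: one found in most tissues and one known from muscle, testis or hypoxic cells. Of the 12 common subunits, 11 were lower at an adjusted p under 0.05, with a median of -0.71. Cox8a was at 624, 572 and 615 TPM in tumors, 1160, 1280 and 1480 TPM in adjacent cerebellum and 1360 to 1850 TPM (median 1530) in controls (-1.35 ± 0.11, adjusted p = 1.13e-06). Cox7c was at 428, 301 and 426 TPM against 676 to 1190 TPM (median 979), at -1.31 ± 0.18 (adjusted p = 6.87e-05), with a wide spread among the controls.

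The most abundant were Cox4i1, at 908, 1120 and 1010 TPM in tumors against 1510 to 1870 TPM (median 1670), and Ndufa4, at 952, 940 and 1160 TPM against 1360 to 1770 TPM (median 1590). Their log2 fold changes were -0.73 and -0.62. The exception was Cox7a2l, known for its part in joining complexes III and IV into supercomplexes. It was at 215, 283 and 275 TPM in tumors and 208 to 235 TPM (median 226) in controls, and the groups overlapped (0.19 ± 0.09, adjusted p = 0.0836).

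Of 7 restricted forms tested, all well below their common counterparts in TPM, 4 were called lower. Cox6b2, known from testis, was at 4.84, 4.73 and 6.14 TPM in tumors, 18.5, 19.3 and 18.9 TPM in adjacent cerebellum, 28.4, 28.8 and 28.4 TPM in Brca2-mutant controls and 34.5, 36.4 and 36.6 TPM in Trp53-mutant controls. No group overlapped another (tumor against controls -2.41 ± 0.13, adjusted p = 7.61e-08). Its common counterpart Cox6b1 was at -0.68, and the Cox6b2 share of their summed TPM was 0.925% ± 0.0599 (SD, n = 3) in tumors and 3.51% ± 0.672 (SD, n = 6) in controls (exact permutation p = 0.0119, adjusted 0.0159). In adjacent cerebellum the mean share was 2.64% (tumor against adjacent, exact permutation p = 0.1).

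Cox7a1, known from heart and skeletal muscle, was at 9.10, 9.05 and 10.3 TPM in tumors, 26.2, 28.2 and 42.5 TPM in adjacent cerebellum and 35.1 to 51.9 TPM (median 42.0) in controls (-2.07 ± 0.12, adjusted p = 1.62e-07). Its common counterpart Cox7a2 was at -0.51. As a share of the summed TPM of Cox7a1, Cox7a2 and Cox7a2l, Cox7a1 was 1.83% in tumors and 6.94% in controls, while Cox7a2l was 49.6% and 35.8% (exact permutation p = 0.0119 for both, adjusted 0.0159). In adjacent cerebellum the mean shares were 5.86% and 42.4%. Tumor against adjacent gave an exact permutation p of 0.1 for Cox7a1 and 0.3 for Cox7a2l, whose shares overlapped.

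Cox4i2, a form known from lung and low oxygen, was at 4.93, 4.23 and 4.80 TPM in tumors against 10.3 to 14.3 TPM (median 12.1) in controls (-1.24 ± 0.13, adjusted p = 8.17e-06). Its share of the summed TPM of Cox4i1 and Cox4i2 was 0.463% and 0.736% (exact permutation p = 0.0119, adjusted 0.0159). In adjacent cerebellum the share was 0.48%, 0.488% and 0.653%, which overlapped the tumors (exact permutation p = 0.4). The muscle form Cox8b was at 4.01, 0 and 0.496 TPM in tumors and 3.19 to 12.7 TPM (median 6.70) in controls. It was called lower at -2.02 ± 0.52 (adjusted p = 0.00517), but tumor GB344 lay within the control range, and the call was lost in 8 of 20 alternatives. Those were a pseudocount of 0.01, either control group alone, and leaving out tumor GB359, tumor GB370 or control GB361, GB519 or GB520.

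The other 3 restricted forms were not called. Cox7b2 was at 0.807, 0 and 0 TPM in tumors and 0.422 to 5.90 TPM in controls, which overlapped (-1.47 ± 0.51, adjusted p = 0.0241). It passed the call in 4 of 18 alternatives (pseudocounts of 0.1 and 0.01, without control GB512, and with Trp53-mutant controls alone), with fold changes between -5.57 and -1.26, and no longer passed an adjusted p under 0.05 without tumor GB359 or GB370. The muscle form Cox6a2 was at 1.18, 1.18 and 0.540 TPM against 0.353 to 4.31 TPM (-0.41 ± 0.39, adjusted p = 0.375). Ndufa4l2, known as induced by hypoxia, was at 11, 4.70 and 7.88 TPM in tumors against 5.18 to 6.21 TPM in controls (0.34 ± 0.20, adjusted p = 0.147), and its share of the sum with Ndufa4 was 0.772% against 0.367% (exact permutation p = 0.0119, adjusted 0.0159). In adjacent cerebellum that share was 0.575% and overlapped the tumors (tumor against adjacent, exact permutation p = 0.4). For the shares of Cox6a2, Cox7b2 and Cox8b the exact permutation p was 0.81, 0.0833 and 0.238 against controls. Against adjacent cerebellum it was 0.8, 0.2 and 0.9.

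**Figure D4:**
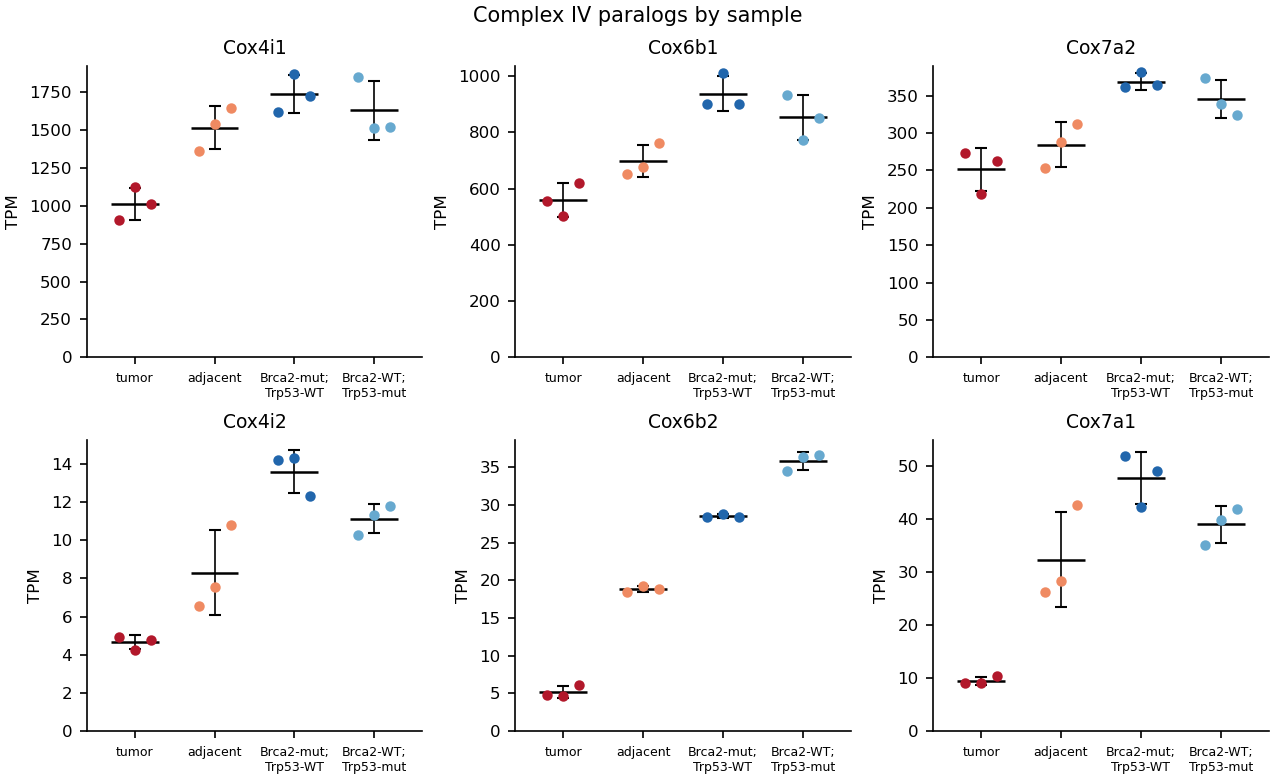
TPM of 3 common complex IV subunits (top) and their restricted paralogs (bottom) in every sample (points), with group means and SD (n = 3, y axes from 0 and different in each panel). The tumors hold 4.73 to 6.14 TPM of Cox6b2 and 9.05 to 10.3 TPM of Cox7a1, below every other sample.

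Complex V, the ATP synthase, had the smallest drop in summed TPM. By median log2 fold change complex II had the smallest (-0.32, against -0.49 for complex V). Of its 15 subunits, 11 were lower at an adjusted p under 0.05, 1 was higher, and 0 passed 2-fold. Atp5b, the catalytic beta subunit of the F1 head and the most abundant member, was at 1010, 842 and 1010 TPM in tumors, 1280, 1460 and 1560 TPM in adjacent cerebellum and 1710 to 1840 TPM (median 1740) in controls (-0.88 ± 0.08, adjusted p = 4.64e-06). Its partner Atp5a1, the alpha subunit, was at -0.53, at 649, 651 and 750 TPM against 936 to 1040 TPM (median 988). The membrane subunit Atp5k was at -0.67 and the central stalk subunit Atp5c1 at -0.66.

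Of the subunits with the smallest differences, these did not pass the test: the coupling factor Atp5j (-0.01 ± 0.08, adjusted p = 0.947), the F1 subunit Atp5e (-0.13 ± 0.11, adjusted p = 0.293) and the membrane subunit Atp5j2 (-0.20 ± 0.12, adjusted p = 0.149). Atp5j was at 426, 465 and 525 TPM in tumors and 437 to 512 TPM (median 472) in controls, and its fold change ran from -0.09 to 0.11 over the alternatives.

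The c-ring, the rotor of the ATP synthase, is built from 1 mature protein that 3 genes encode with different import sequences. Atp5g2 was higher in tumors, and Atp5g1 and Atp5g3 were lower. Atp5g2 was at 535, 548 and 618 TPM in tumors, 415, 445 and 386 TPM in adjacent cerebellum and 328 to 404 TPM (median 373) in controls, with the tumors above every other sample (0.61 ± 0.09, adjusted p = 0.00014). Atp5g1 was at 262, 188 and 258 TPM against 337 to 379 TPM (median 353), at -0.61 ± 0.11 (adjusted p = 0.000468), and Atp5g3 at 617, 505 and 602 TPM against 807 to 909 TPM (median 871), at -0.60 ± 0.08 (adjusted p = 8.4e-05).

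The Atp5g2 share of the summed c-ring TPM averaged 41.3% ± 3.18 over the 3 tumors, 28.4% ± 3.18 over the 3 adjacent samples and 23.2% ± 0.868 over the 6 controls (mean ± SD). Tumor against controls gave p = 0.0119 by exact permutation, adjusted 0.0159. The Atp5g3 share went from 54.5% in controls to 41.7% in tumors and the Atp5g1 share from 22.4% to 17.1%, at the same p. Tumor against adjacent cerebellum gave an exact permutation p of 0.1 for each share, the smallest that 3 against 3 samples allow. Together the 3 genes reached 1380 ± 122 TPM (SD, n = 3) in tumors against 1590 ± 84.6 TPM (SD, n = 6) in controls. The genes lie on chromosome 11 at 96072793 to 96075694 (Atp5g1), chromosome 15 at 102662868 to 102671047 (Atp5g2) and chromosome 2 at 73908447 to 73912464 (Atp5g3).

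**Figure D5:**
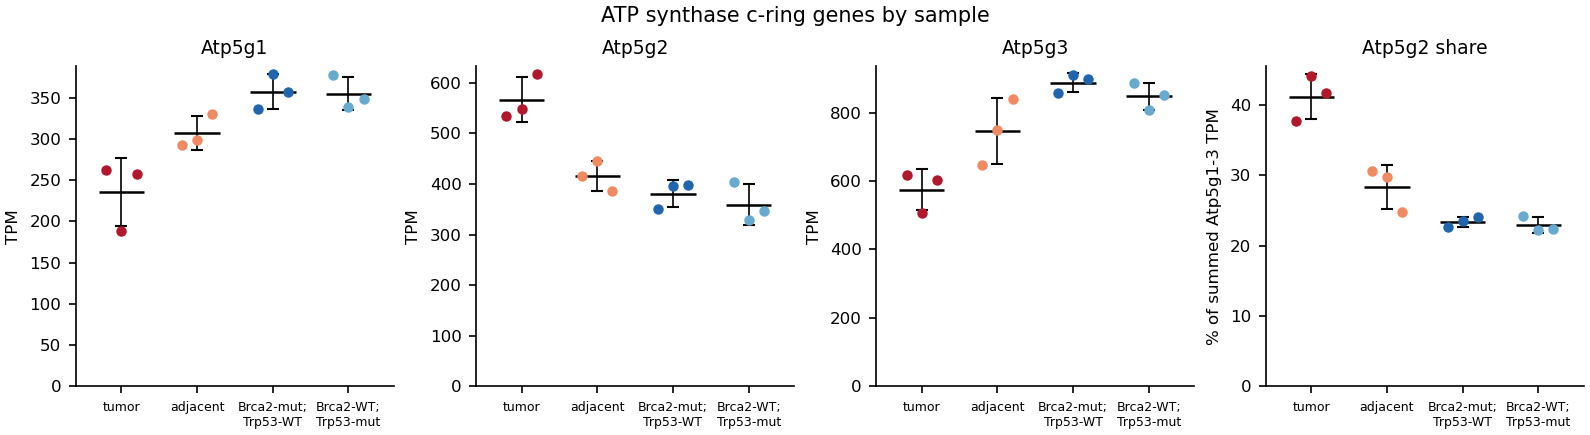
TPM of the 3 c-ring genes in every sample and the Atp5g2 share of their sum in percent (points), with group means and SD (n = 3, y axes from 0). Atp5g2 is highest in the tumors, at 535 to 618 TPM, while Atp5g1 and Atp5g3 are lowest there.

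Promoters were read for matches to 3 short motifs of factors known to act on respiratory chain genes, since most members moved together and Atp5g2 did not. RefSeq promoters (250 bases before to 50 after the gene start, GRCm38.p6) were matched for 68 of the 83 subunits by gene ID. The NRF1 core GCATGCGC, on either strand, was in 10 of 68 subunit promoters (14.7%), in 5.33% of the promoters of tested genes and in 3.05% of all promoters. The ETS core CCGGAAG was in 16 (23.5%, against 17.4% and 9.93%) and the YY1 core AAGATGGC in 10 (14.7%, against 4.63% and 3.19%). The last 2 motifs can overlap in the letters AAG, and Atp5j held both.

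The 10 NRF1 matches are shown in windows of 30 bases, read 5′ to 3′ on the strand of the gene, with the core in capitals, because they show that Atp5g2, which rose, shares the core with 9 subunits that had negative fold changes. Where capitals run to 10 letters, the core and its reverse complement overlap.
Atp5g2, chr15:102671070-102671099, minus strand: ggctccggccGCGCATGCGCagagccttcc
Atp5k, chr5:108434430-108434459, minus strand: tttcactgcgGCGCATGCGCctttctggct
Atp5l, chr9:44920963-44920992, minus strand: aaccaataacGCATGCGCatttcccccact
Cox6a1, chr5:115349101-115349130, minus strand: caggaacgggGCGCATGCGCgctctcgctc
Ndufa11, chr17:56717692-56717721, plus strand: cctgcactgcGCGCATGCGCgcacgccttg
Ndufa6, chr15:82354356-82354385, minus strand: tccgcggtagaGCATGCGCattgcagagcc
Ndufa8, chr2:36049328-36049357, minus strand: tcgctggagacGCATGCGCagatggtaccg
Sdhb, chr4:140961206-140961235, plus strand: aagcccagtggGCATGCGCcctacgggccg
Uqcr11, chr10:80406807-80406836, minus strand: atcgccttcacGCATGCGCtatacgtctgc
Uqcrc1, chr9:108936668-108936697, plus strand: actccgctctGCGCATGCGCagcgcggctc

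In Atp5g2 the capitals begin 42 bases before the gene start and in Sdhb 54 bases before it. The 10 subunits with the core had log2 fold changes from -1.09 to 0.61 in tumor against controls (median -0.76), and the 58 without it from -2.41 to 0.19 (median -0.62). Among these subunits only Atp5g2, with the core, and Cox7a2l (0.19), without it, had positive fold changes. Ndufa2 and Ndufa4l2, which were also positive, had no promoter matched. With so few rises, a separation by direction could not be seen either way. No NRF1 match was found in the windows of Sdha, Atp5g1 or Atp5g3, which says only that these letters are not there.

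The tumors were next set against the adjacent cerebellum of the same mice. This comparison shares its tumors with the one above. Of 84 members, 6 were called lower and 0 higher, where 18.0% of the 15845 genes tested were called lower and 4.76% higher. At an adjusted p under 0.05, 39 members were lower (46.4%, against 32.2% of all genes) and 1, Atp5g2, was higher (against 18.1%). At an unadjusted p under 0.05, limma gave 46 lower and 1 higher, against 5617 and 3428 of the 15845 genes tested. The tumors lay below all adjacent samples for 54 members, against 38.9% of all genes. The median was -0.41, against -0.14 over all genes.

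The 6 calls were Sdha (-1.85 ± 0.13, adjusted p = 0.0002), Cox6b2 (-1.68 ± 0.17, adjusted p = 0.00043), Cox7a1 (-1.64 ± 0.21, adjusted p = 0.00115), Ndufv3 (-1.19 ± 0.14, adjusted p = 0.000889), Cox8a (-1.10 ± 0.15, adjusted p = 0.0016) and the apart row Atp5sl (-1.49). Those of Cox8a and Ndufv3 were lost under median-of-ratios scaling. For complex II without Sdha, the differences were within -0.17 to -0.08 (Sdhc and Sdhd at the ends), none passed the test, and median-of-ratios scaling turned all 3 to positive values. Atp5g2 was at 0.45 ± 0.13 (adjusted p = 0.0268), and at an adjusted p of 0.0523 with the mouse as a replicate block. It also no longer passed without any 1 of the 3 adjacent samples or without tumor GB359 or GB370.

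Within mice, 63 of 84 members were lower in the tumor than in the adjacent sample of the same mouse in all 3 mice, against 44.6% of all genes. In the other direction, 2 members were higher in all 3 mice, against 30.2% of all genes. The median difference of the members was -0.28 in GB344, -0.58 in GB359 and -0.44 in GB370, against -0.23, -0.07 and -0.15 over all genes. By complex, 29 of 36 subunits of complex I, 7 of 8 of complex III and 9 of 15 of complex V were lower in all 3 mice. In GB344 the medians of complexes II and V were both -0.07.

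Scaling mattered more here. Over all genes, 755 were called higher and 2852 lower as deposited (20.9% higher), 1441 and 2410 with median-of-ratios scaling (37.4%), and 1603 and 2196 with quantile normalization (42.2%). The median over all genes went from -0.14 to 0.05 and 0.13, and the members lay 0.27 below it as deposited and 0.25 and 0.47 below it under the 2 scalings. Members lower at an adjusted p under 0.05 went from 39 to 21 with median-of-ratios scaling, and to 23 without adjacent sample GB359.

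The adjacent cerebellum carries both mutations and was set against the controls. No member was called in either direction (limma, 0 higher and 0 lower, where 0.224% and 0.0124% of 16091 genes were called). At an adjusted p under 0.05, 24 of 84 members were lower (28.6%, against 5.57% of all genes) and 0 were higher (against 10.1%). At an unadjusted p under 0.05, limma gave 51 lower and 1 higher, against 1999 and 3552 of the 16091 genes tested. Over all genes, 36 were called higher and 2 lower as deposited, 52 and 11 with median-of-ratios scaling, and 42 and 18 with quantile normalization. The median was -0.22, against 0.07 over all genes, 79 of 84 fold changes were negative, and 30 members lay below every control, which held for 7.64% of all genes.

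Cox6b2 had the smallest p, at -0.73 ± 0.11 (adjusted p = 0.00891), followed by Ndufs4, an accessory subunit of complex I (-0.33 ± 0.06, adjusted p = 0.0161), and Ndufab1, the mitochondrial acyl carrier protein (-0.25 ± 0.06, adjusted p = 0.0211). The last 2 no longer passed without adjacent GB344, and Ndufab1 also without adjacent GB359 or with all 4 groups in the fit. Ndufs4 was at 55.9, 57.5 and 62.9 TPM in adjacent cerebellum against 71.2 to 80.3 TPM (median 72.8) in controls. Sdha was at -0.27 ± 0.07 (adjusted p = 0.0404), with all 3 adjacent samples below every control, and no longer passed in 11 of 18 alternatives. The count of 24 rested on single samples: it was 1 without adjacent GB344, 4 without adjacent GB359 and 41 without adjacent GB370, and 7 (GB361), 10 (GB508), 9 (GB512), 11 (GB517), 15 (GB519) and 9 (GB520) without a single control, while the median stayed between -0.28 and -0.16. GB344 and GB359 are the adjacent samples with summed progenitor markers of 416 and 333 TPM, and the part of that RNA in the result was not tested.

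The control genotypes were compared with each other. They differ at both genes, so the part of each gene cannot be told apart. Of 84 members 0 were called higher and 0 lower (against 0.0128% and 0.0449% of 15575 genes), and 0 passed an adjusted p under 0.05 (against 0.0385% higher and 0.417% lower). At an unadjusted p under 0.05, limma gave 8 higher and 1 lower in Brca2-mutant controls, against 744 and 2379 of the 15575 genes tested. Over all genes, 2 were called higher and 7 lower, 2 and 1 under both median-of-ratios and quantile scaling, and 2 and 2 after rescaling without Mir6236. The median was 0.09, against -0.07 over all genes, with 75 of 84 fold changes positive. The 3 smallest p were those of Cox6b2 (-0.32, adjusted p = 0.0858), Uqcrh (0.20, adjusted p = 0.139) and Ndufb3 (0.23, adjusted p = 0.187). The choroid plexus markers differ between these groups as given above.

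Within groups the subunits varied little. Over the 77 members at 20 TPM or more, the median coefficient of variation was 10.5% in tumors, 9.11% in adjacent cerebellum and 6.58% in controls. Ndufs5 had the highest value over the 6 controls, 35.1%, and Cox7c the highest over the 3 Brca2-mutant controls alone, 27.3%. Ndufs5 was at 474, 293 and 484 TPM in Brca2-mutant and 510, 235 and 237 TPM in Trp53-mutant controls. With tumors at 136, 242 and 155 TPM it overlapped the controls and was not called (-1.03 ± 0.30, adjusted p = 0.0109), but it passed the call in 7 of 20 alternatives.

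Among tumors, 2 subunits were lower still in GB370 than in the other tumors. Both were lower in tumors than in controls at an adjusted p under 0.05 (limma) in all 20 alternatives, also without GB370. With 1 sample left out, the log2 fold change ran from -1.06 to -0.67 for Ndufa8 and from -0.79 to -0.41 for Atp5c1. Ndufa8 was at 169, 163 and 99.2 TPM, and Atp5c1 at 295, 300 and 178 TPM, while the highest control was 1.15 and 1.11 times the lowest. Both genes lie on chromosome 2, Atp5c1 from 10056030 and Ndufa8 from 36036324. Tested genes within 5 Mb had median differences of GB370 from the other tumors of -0.34 (41 genes, around Atp5c1) and -0.58 (99 genes, around Ndufa8) on the log2 scale, against 0.01 over all genes. The part of position in these values was not tested.

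The 2 apart rows were also lower in tumors. Atp5sl, an assembly factor of complex I despite its name, was at 22.3, 25.5 and 21.4 TPM against 66.6 to 83.6 TPM (median 69.1) in controls (-1.60 ± 0.09, adjusted p = 1.46e-07). Atp5s was at 9.14, 10.5 and 10.1 TPM against 19.2 to 22.3 TPM (median 21.3), at -1.02 ± 0.09 (adjusted p = 2.56e-06).

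Other genes of the pathway were read from lists, in tumor against controls. Of 46 assembly factors tested, 3 were called lower and 0 higher, and at an adjusted p under 0.05, 25 were lower and 6 higher, with a median of -0.35. The called share, 6.52%, was below the 21.5% of all genes. At the second threshold 54.3% were lower and 13.0% higher, against 39.5% and 31.8% of all genes. The calls were Cox14 (-1.17) and Atpaf1 (-1.11), which serve complex IV and the ATP synthase, and Ndufaf3 (-1.05) of complex I. Atpaf1 and Ndufaf3 lost the call under both other scalings, and Ndufaf3 also without tumor GB344. Of 17 genes of pyruvate dehydrogenase and the citric acid cycle, which feed the chain, 6 were called lower and 0 higher, among them Ogdh, a subunit of the oxoglutarate dehydrogenase complex (-1.52 ± 0.06, adjusted p = 1.81e-08). The called share was 35.3%. Their median was -0.76, and 15 were lower and 1 higher at an adjusted p under 0.05 (88.2% lower, against 39.5% of all genes).

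Of 13 genes of coenzyme Q synthesis, 1 was called lower (Coq8a, -1.04, a call lost in 6 of 20 alternatives), with 8 lower and 2 higher at the second threshold. The called share was 7.69%, against 21.5% of all genes. At the second threshold the shares were 61.5% and 15.4%, against 39.5% and 31.8%. Of 7 genes of cytochrome c and electron entry, 1 was called lower (14.3%), the glycerol phosphate dehydrogenase Gpd2 (-1.16 ± 0.11, adjusted p = 3.96e-06). At the second threshold 4 of the 7 were lower and 2 higher (57.1% and 28.6%). Of 16 genes of the outer membrane channel, protein import and ADP/ATP carriers, 1 was called higher, the chaperonin Hspd1 (1.11 ± 0.16, adjusted p = 0.000109, lost without tumor GB344), and the median was 0.05.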

How the data were processed

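RNA was measured in 12 samples of 4 groups (3 each). Per the labels and the study's methods, libraries were made from poly(A) RNA. Transcript levels were estimated by the authors with Salmon 0.8.1 against mm10 knownGene models, and tximport gave gene values. The deposited values are TPM for 24091 genes. They hold no read counts, so the count test of the study was not run, depth is unknown and precision is given by the spread between samples. 0 columns were left unused. Gene IDs matched RefSeq GRCm38.p6 for 24041 genes.

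A gene entered a comparison if 3 or more of its samples reached 1 TPM. Log2(TPM + 1) was fitted with limma 3.58.1 (lmFit, eBayes with trend, R 4.3.3), and p-values were adjusted by Benjamini-Hochberg across every gene in the fit. On this scale the change of low genes is understated. Thresholds of the study (adjusted p under 0.01, absolute log2 fold change of at least 1) were used, with an adjusted p under 0.05 beside them. The fit was tested on simulated data with known changes, all above the 2-fold threshold. Smaller changes, which most members had, were not simulated. Tumor and adjacent samples with the same mouse number come from the same animal, and their deviations from the group means correlated at 0.249, 0.176 and 0.152 over 15845 genes. Pairs from different mice were at -0.163 to 0.018. Deviations from a group mean cancel out, so the matched and unmatched values are not independent. Control mice are separate animals. Ratios and shares were tested by exact permutation over samples, without the pairing by mouse. Python 3.11.15, pandas 2.3.3 and scipy 1.17.1 were used.

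The members and gene lists were chosen with earlier results of these data known. Named were complex II, the paralog groups, in each complex the 3 lowest and 3 highest changes and the 2 highest mean TPM, calls of the other comparisons (or the 3 smallest p), and in each list the 2 largest calls per direction. One gene that this rule takes is not reported here. Ndufb10, Ndufs1, Ndufs5, Ndufa8, Cox7c and further list genes were named after their values were seen. Subunit genes have processed pseudogenes, whose reads may be shared. Alternatives changed the pseudocount (0.1, 0.01), the filter (none, 5 TPM), the scaling, the trend, the groups fitted, the controls, the block and each sample in turn.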

Additional observations from a re-analysis of the deposited data

How the results depend on the processing

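Members called lower in tumor against controls ranged from 11 (median-of-ratios scaling) to 20 (after leaving out Mir6236, which takes 4.25% to 11.5% of each sample), and 0 were called higher under every alternative that kept the fold minimum. With an adjusted p under 0.05 and no fold minimum, members called lower became 72 and higher 2 in that comparison, 39 and 1 in tumor against adjacent, and 24 lower in adjacent against controls. Median-of-ratios scaling moved the median log2 fold change of the members to -0.53 in tumor against controls, to -0.20 in tumor against adjacent and to 0.21 between the control genotypes, and members lower at an adjusted p under 0.05 in tumor against adjacent to 21. Leaving out 1 sample at a time, that last count ranged from 23 to 36. In adjacent against controls it was 13 without a filter, 13 without the trend and 10 with all 4 groups in the fit, and 1 to 41 with 1 sample left out. The median of all members changed sign in none of these, while that of complex II turned to 0.07 in tumor against adjacent with median-of-ratios scaling. With the mouse as a replicate block, tumor against adjacent gave 6 members called lower, 0 higher and a median of -0.41, and 38 lower at an adjusted p under 0.05, with Atp5g2 no longer higher (adjusted p = 0.0523). Atp5a1, Ndufa8 and Ndufb5 were lost and Ndufb3 and Ndufs5 gained at that threshold. Depth is unknown, so values near 0 TPM cannot be limited.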

Other observations

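Of 78 genes of mitochondrial ribosomal proteins, which translate the subunits encoded by mitochondrial DNA, 2 were called higher in tumors than in controls and 0 lower, and at an adjusted p under 0.05, 39 were higher and 11 lower (limma), with a median log2 fold change of 0.31. Over all genes, 14.4% were called higher, and at the second threshold 31.8% were higher and 39.5% lower. The summed TPM of the 78 genes was 6654, 6001 and 6533 in tumors and 5147 to 5445 in controls, with no overlap. Mrpl52 was called at 1.40 ± 0.13 (adjusted p = 3.14e-06), at 386, 290 and 328 TPM in tumors against 111 to 160 TPM. Mrps35 was called at 1.0 ± 0.13, and that call was lost in 5 of 20 alternatives. The difference between this group and the subunits was not tested.

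Of 18 regulators of mitochondrial biogenesis and factors of mitochondrial DNA, 5 were called lower (27.8%, against 21.5% of all genes) and 3 higher (against 14.4%). At an adjusted p under 0.05, 9 were higher and 6 lower, and the median was 0.29. The coactivator Ppargc1a was at 1.40, 2.30 and 1.73 TPM in tumors, 19.3, 19.9 and 22.0 TPM in adjacent cerebellum and 19.8 to 27.9 TPM in controls (-3.19 ± 0.14, adjusted p = 3.09e-08). The nuclear receptors Esrrg (-3.72), Esrrb (-2.68) and Esrra (-1.93) and the coactivator Ppargc1b (-3.58) were the other calls, and none of the 5 was lost in an alternative. In the other direction, Ssbp1, which binds single-stranded mitochondrial DNA, was at 69.3, 89.7 and 99.0 TPM in tumors against 24.2 to 35.0 TPM in controls (1.52 ± 0.14, adjusted p = 3.17e-06). The mitochondrial DNA helicase Twnk was at 24.6, 39.6 and 27.9 TPM against 10.7 to 12.8 TPM (1.28 ± 0.14, adjusted p = 1.65e-05). Pprc1 was called at 1.03, and that call was lost in 4 of 20 alternatives. Markers of Purkinje cells and granule neurons fell in the same samples, and their part in these values was not tested.

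The remaining marker lists gave these calls in tumor against controls, where 21.5% of all genes were called lower and 14.4% higher. Of 7 astrocyte and Bergmann glia markers 6 were called lower, of 6 endothelial markers 2 lower, of 7 microglia markers 2 higher, of 3 erythrocyte markers 3 lower, of 8 choroid plexus markers 1 lower, and of 7 muscle markers tested 1 higher and 1 lower.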
